A study of Mus musculus with 6 samples.

Results

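The genes described here are 10 genes of the MHC class II system, taken by symbol from the 41388 genes that each table lists. They are the classical chains H2-Aa, H2-Ab1 and H2-Eb1, the peptide-loading chains H2-DMa, H2-DMb1 and H2-DMb2, the loading-modulator chains H2-Oa and H2-Ob, the invariant chain gene Cd74 and the transcriptional coactivator gene Ciita. They were picked by symbol and not by a threshold on values, though with earlier results of these data known, and all 10 passed the filter on low counts. Their RNA was measured by bulk RNA-seq in macrophages from the intimal, or innermost, layer of mouse aortas that held atherosclerotic plaques.

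All mice were ApoE -/- on the C57BL/6 strain, and lack of apolipoprotein E leaves them prone to plaques. The series design gives 6 mice fed a Western diet for 28 weeks, and the sources used here do not give their age or sex. The foamy group was live CD64+CD11b+ cells bright for BODIPY493/503, which stains neutral lipid, and high in side scatter. The non-foamy group was live CD64+CD11b+ cells low in both. Each group was sequenced as 3 libraries. No library from mice with intact Apoe was analysed here, so both groups carry the same deletion and diet. Nothing in the labels says which mice went into which library, and the p-values describe the spread between libraries alone, which may be technical.

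MHC class II molecules are pairs of an alpha and a beta chain that show peptides from endosomes to CD4 T cells. The invariant chain holds new pairs in shape and guides them to endosomes, where cathepsins trim it to the fragment CLIP. H2-DM then exchanges CLIP for a peptide, and H2-O restrains H2-DM. Ciita does not bind DNA itself: it joins RFX, CREB and NF-Y at a shared promoter module and sets how strongly these genes are transcribed. Macrophages carry moderate class II and raise it under interferon gamma, whereas dendritic cells and B cells carry much more.

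Total counts in genes ran from 15628627 to 24619075, and levels are given as counts per 1000000 (CPM), scaled with TMM factors of 0.868 to 1.186. A log2 ratio below is the log2 fold change of foamy over non-foamy libraries from the fit. Non-foamy 1 had the lowest total and the most genes with a count, 24701 against 15595 to 20538 in the others. Of the genes of the sort antibodies, Itgam, which encodes CD11b, averaged 77.8 ± 7.82 CPM (SD, n = 3) in foamy and 142.4 ± 13.2 CPM in the non-foamy libraries (log2 ratio -0.87, edgeR adjusted p = 0.023). Fcgr1, which encodes CD64, averaged 232 ± 44.8 and 182 ± 52.9 CPM (log2 ratio 0.35, edgeR adjusted p = 0.50). Apoe RNA stood at 4.96 ± 1.78 CPM in the foamy and 4.45 ± 1.66 CPM in the non-foamy libraries. Of 8 macrophage markers, all were detected; Mertk, Lyz2 and Cd68 were higher and Adgre1, Csf1r and Itgam lower in foamy libraries. These 6 calls were reached with all 6 libraries, and none was reached without both libraries numbered 3. That of Itgam was also lost without any single library except non-foamy 1, and that of Adgre1 without foamy 1, 2 or 3 or non-foamy 2; both were lost with the replicate number as a block (edgeR adjusted p = 0.082 and 0.094).

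The shared promoter module is shown first because it is the sequence feature that class II genes are known to share. In it RFX binds the X box and NF-Y the Y box, a CCAAT motif that reads ATTGG on the gene's strand in class II promoters. RefSeq windows of 300 bases, from 250 before to 50 after a listed start (GRCm38.p6), were matched for 7 of the 10 genes; H2-Ab1, Cd74 and Ciita had no window. The letters GNAAC followed by ATTGG, with starts 28 to 36 bases apart, were searched on both strands, a spacing chosen after the windows had been seen. On the gene's strand that pair stood once in each of 5 genes, H2-Aa, H2-Eb1, H2-DMb1, H2-Oa and H2-Ob, with starts 30 to 33 bases apart. Of all 32851 windows, 0.734% held it on the gene's strand and 1.55% on either strand, and 22.1% held ATTGG on the gene's strand. The 53 bases that end with ATTGG are printed 5′ to 3′ on the gene's strand, with GNAAC and ATTGG in capitals, for 5 genes. Those of H2-DMb1 are left out because they lie inside annotated exons. H2-DMa is left out because its windows lie far from its deposited start.
H2-Aa, chr17:34287867-34287919, minus strand: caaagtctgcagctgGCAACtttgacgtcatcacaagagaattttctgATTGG
H2-Eb1, chr17:34305760-34305812, plus strand: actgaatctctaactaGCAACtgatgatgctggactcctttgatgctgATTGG
H2-Oa, chr17:34092288-34092340, plus strand: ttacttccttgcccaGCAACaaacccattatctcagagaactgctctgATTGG
H2-Ob, chr17:34238800-34238852, plus strand: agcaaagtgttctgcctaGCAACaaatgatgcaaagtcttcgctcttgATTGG
H2-DMb2, chr17:34145111-34145163, plus strand: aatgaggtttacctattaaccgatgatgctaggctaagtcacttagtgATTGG

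In H2-Ob the distance between the starts was 30 bases, the shortest of the 5 genes, and in H2-Aa, H2-DMb1 and H2-Oa it was 33. H2-DMb2 held ATTGG but not GNAAC at that spacing, and its listed start lies 1942 bases inside the gene as deposited. The windows listed for H2-DMa lie 12350 and 9664 bases before its deposited start, and neither held the pair. A match of letters describes the sequence and does not show that a factor binds there. The genes with the pair differed widely in level and in fold change, as given next.

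The first question was whether class II RNA differed between lipid-laden and lipid-poor macrophages. All 10 genes were lower in foamy libraries by their fold change, and 1 of 10, H2-Ob, passed the test (edgeR quasi-likelihood F-test, Benjamini-Hochberg adjusted p under 0.05). None was called higher. Of all 11303 genes tested, 2.9% were called lower and 2.5% higher. At an unadjusted p under 0.05, 6 of the 10 genes were lower and 0 higher, against 10.1% and 8.63% of all genes tested. DESeq2 called 4 of the 10 lower and 0 higher, against 5.99% and 4.29% of the genes it tested. In 3 of the 10 genes, H2-DMb2, H2-Oa and H2-Ob, every foamy library lay below every non-foamy library, as in 13.3% of all genes tested; the reverse, which held for 12.4% of all genes tested, held for 0 of the 10. The median log2 ratio of the 10 genes was -1.23, against -0.04 over all genes tested, of which 52.8% had a negative value. Without non-foamy 3 the median of the 10 was -0.76, and without foamy 3 it was -1.70. In bulk samples, fewer class II-bearing cells and less class II RNA per cell cannot be told apart.

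**Figure D1:**
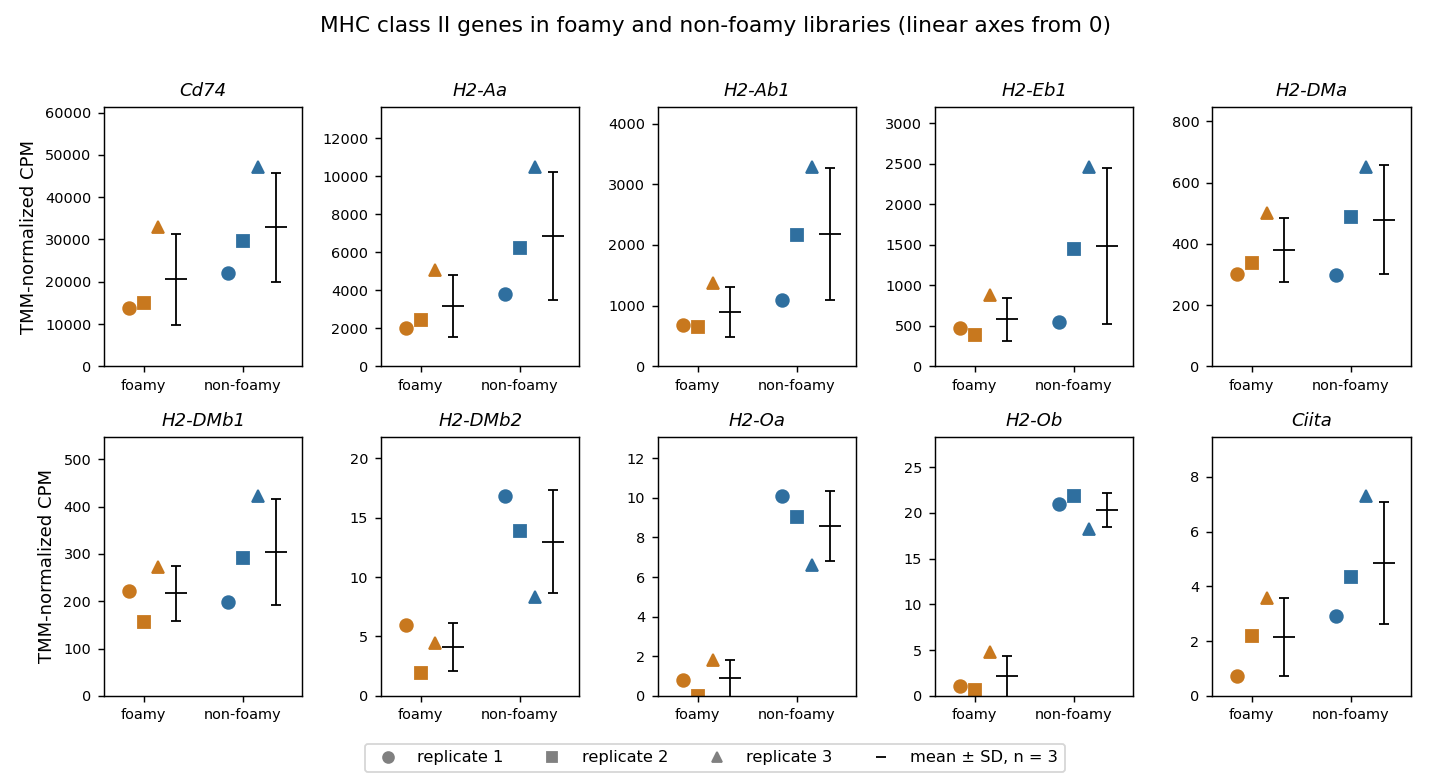
TMM-normalized CPM of the 10 class II genes in each library on linear axes from 0, with points for replicates 1 to 3 and bars for mean ± SD (n = 3). Foamy libraries lie below all non-foamy libraries for H2-DMb2, H2-Oa and H2-Ob, and replicate 3 stands highest in both groups for Cd74, H2-Aa, H2-Ab1, H2-Eb1, H2-DMa, H2-DMb1 and Ciita.

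The classical chains form the peptide-binding molecule at the cell surface. H2-Aa (ENSMUSG00000036594, chromosome 17, 34282744 to 34287827 on GRCm38, minus strand), the alpha chain of I-A, stood at 2022, 2431 and 5067 CPM in foamy 1 to 3 and at 3823, 6235 and 10488 CPM in non-foamy 1 to 3. Foamy 3 lay above non-foamy 1, so the groups overlapped. Its means were 3173 ± 1653 and 6849 ± 3375 CPM, a log2 ratio of -1.11 (SE 0.39, edgeR adjusted p = 0.14). It was -0.65 without non-foamy 3 (edgeR adjusted p = 0.37), and with the replicate number as a block, which pairs nothing known from the design, it was -1.11 and passed the threshold (edgeR adjusted p = 0.018).

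H2-Ab1 (ENSMUSG00000073421, chromosome 17, 34263209 to 34269418, plus strand), the beta chain that pairs with H2-Aa, stood at 681, 646 and 1368 CPM in the foamy and at 1101, 2159.6 and 3287 CPM in the non-foamy libraries. Again only foamy 3 reached into the non-foamy range. The log2 ratio was -1.28 (SE 0.38, edgeR adjusted p = 0.082), and the gene passed the threshold in 5 of 18 alternatives, over which adjusted p ran from 0.0079 to 0.28. Those were total counts only, DESeq2, no filter on low counts, the replicate number as a block and the fit without non-foamy 1 (-1.60, edgeR adjusted p = 0.024). Without non-foamy 3 the log2 ratio was -0.85.

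H2-Eb1 (ENSMUSG00000060586, chromosome 17, 34305877 to 34316199, plus strand) encodes the beta chain of I-E. C57BL/6 mice carry a promoter deletion in the alpha chain gene of I-E, so this beta chain has no usual partner there. Its RNA stood at 473, 387 and 885 CPM in the foamy and at 543, 1445 and 2462 CPM in the non-foamy libraries. Non-foamy 1 lay among the foamy libraries, whereas non-foamy 2 and 3 lay above all of them. The log2 ratio was -1.35 (SE 0.49, edgeR adjusted p = 0.16) over all libraries, -1.75 without non-foamy 1 (edgeR adjusted p = 0.021) and -0.76 without non-foamy 3 (edgeR adjusted p = 0.35). Adjusted p ran from 0.021 to 0.55 over its 18 alternatives. Further class II genes and pseudogenes, 4 in all, H2-Ea-ps, H2-Eb2, H2-Pa and H2-Pb, were at or near 0, with 3 counts in all foamy and 3 in all non-foamy libraries, and none was tested. H2-Bl, which the list also holds but which is a class I gene, had 8 and 27 counts. The plain symbol H2-Ea was not found, and H2-Ea-ps, by its name the pseudogene form of H2-Ea, had 2 counts in foamy and 0 in non-foamy libraries.

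Cd74 (ENSMUSG00000024610, chromosome 18, 60803848 to 60812646, plus strand), the invariant chain that also serves as a receptor of the cytokine MIF, was the most abundant class II gene. It stood at 13777, 14924 and 32926 CPM in the foamy and at 21946, 29552 and 47157.5 CPM in the non-foamy libraries. Foamy 3 lay above non-foamy 1 and 2, so the groups overlapped more than for the classical chains. The log2 ratio was -0.68 (SE 0.35, edgeR adjusted p = 0.35), and it ran from -1.19 without foamy 3 to -0.32 without non-foamy 3. By count Cd74 ranked 6 to 8 among all genes in foamy libraries and 2 to 3 in non-foamy libraries. It made up 1.20%, 1.44% and 2.96% of all counts in foamy 1 to 3 and 2.59%, 3.18% and 4.87% in non-foamy 1 to 3.

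H2-DM, a pair of H2-DMa with a beta chain from H2-DMb1 or H2-DMb2, had log2 ratios nearest to 0 in its main chains. H2-DMa (ENSMUSG00000037649, chromosome 17, 34135182 to 34139101, plus strand) stood at 300.1, 339 and 499 CPM in the foamy and at 298, 488 and 651 CPM in the non-foamy libraries. H2-DMb1 (ENSMUSG00000079547, chromosome 17, 34153072 to 34160230, plus strand) stood at 222, 156 and 271 CPM in the foamy and at 199, 292 and 422 CPM in the non-foamy libraries. In both genes non-foamy 1 lay at or below foamy 1. Their log2 ratios were -0.34 (SE 0.28, edgeR adjusted p = 0.60) and -0.49 (SE 0.28, edgeR adjusted p = 0.40). Without non-foamy 3 they were -0.04 and -0.17.

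H2-DMb2 (ENSMUSG00000037548, chromosome 17, 34143307 to 34151553, plus strand), the other beta chain of H2-DM, was far scarcer and had another order of libraries. It had 126, 35 and 83 counts in foamy and 310, 252 and 211 counts in non-foamy libraries, or 5.98, 1.95 and 4.48 CPM against 16.8, 13.9 and 8.31 CPM. Every foamy library lay below every non-foamy library, and non-foamy 1 was the highest. The log2 ratio was -1.65 (SE 0.53, edgeR adjusted p = 0.11; DESeq2 -1.62, adjusted p = 0.016; 0.016 to 0.29 over its 18 alternatives). Transcripts of H2-DMb1 and H2-DMb2 have 369 words of 50 bases, the read length, in common, which is 22.7% of those of H2-DMb1 and 21.2% of those of H2-DMb2. In all, 451 words of H2-DMb2 (25.9%) occur in other genes, H2-DMb1 included, with 300 matches by gene and strand. The sources used here do not give how reads that match several genes were counted. The split between the 2 genes, and the level of H2-DMb2, are thus uncertain.

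H2-O showed the widest gap between the groups among the 10 genes. This pair of H2-Oa and H2-Ob is best known from B cells and some dendritic cells, where it limits peptide loading by H2-DM. H2-Ob (ENSMUSG00000041538, chromosome 17, 34238903 to 34245907, plus strand) had 22, 11 and 88 counts in foamy and 387, 396 and 464 counts in non-foamy libraries. That is 1.04, 0.613 and 4.75 CPM against 20.96, 21.8 and 18.3 CPM. The non-foamy libraries lay close together, and foamy 3 stood apart from the other foamy libraries but well below the non-foamy ones. The means were 2.13 ± 2.27 and 20.3 ± 1.85 CPM, a log2 ratio of -3.25 (SE 0.68, edgeR adjusted p = 0.018), or 9.52-fold lower in foamy libraries by the fit.

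The call of H2-Ob was reached in 15 of 18 alternatives, over which adjusted p ran from 8.7e-07 to 0.079. It was lost without foamy 1 (-2.91, edgeR adjusted p = 0.079), without foamy 2 (-2.81, edgeR adjusted p = 0.059) and without non-foamy 2 (-3.20, edgeR adjusted p = 0.057). Without foamy 3 the log2 ratio was -4.59 (edgeR adjusted p = 0.0028), and without both libraries numbered 3 it was -4.67 (edgeR adjusted p = 0.0082). No word of 50 bases of its transcripts occurs in another gene.

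H2-Oa (ENSMUSG00000024334, chromosome 17, 34092340 to 34095234, plus strand) had 17, 0 and 34 counts in foamy and 186, 164 and 168 counts in non-foamy libraries. The CPM values were 0.807, 0 and 1.83 against 10.1, 9.03 and 6.61, and the 0 counts of foamy 2 allow up to 0.167 CPM, for counting error only. Foamy libraries were all lower, as for H2-Ob, but the estimate was less precise. The log2 ratio was -3.27 (SE 1.02, edgeR adjusted p = 0.097; 0.0047 to 0.26 over its 18 alternatives). It passed the threshold with DESeq2, without a filter on low counts and with a stricter filter. The antisense gene BC051537 overlaps H2-Oa and holds 225 of its 1454 words of 50 bases (15.5%); it had 2 counts in non-foamy 1 and 0 in the other 5 libraries. The sources used here do not give strandedness.

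Markers of other cell types that carry H2-O had lower summed levels in the foamy libraries, a gap that came mostly from 1 gene in each list. Of 12 dendritic cell markers 3 were tested and 1 was called lower, the chemokine gene Ccl22, whose call was lost without any of foamy 1, 2 or 3 or non-foamy 2. Their summed level was 8.26 to 21.3 CPM in the foamy libraries. In non-foamy 1 to 3 it was 204, 266 and 47.5 CPM, most of it from Cd209a, which stood at 178, 249 and 32.2 CPM there. Without Cd209a the sum was 6.80 to 10.4 CPM in the foamy and 15.3 to 25.5 CPM in the non-foamy libraries. Batf3, a transcription factor of cross-presenting dendritic cells, had a log2 ratio of -0.02 (edgeR adjusted p = 0.99). Clec9a, a receptor of the same cells, was too scarce for the edgeR test and went the other way, with 55 counts in foamy and 0 in non-foamy libraries; DESeq2 called it higher and 3 of the list lower. The defining genes Flt3, Zbtb46 and Ccr7 were at 0.748 CPM or less in every library except non-foamy 1, where they stood at 5.09, 1.68 and 11.4 CPM, and non-foamy 2, where Ccr7 stood at 2.92 CPM. Without non-foamy 1 the log2 ratio of H2-Ob was -3.23 (edgeR adjusted p = 0.046) and that of H2-Oa -3.15 (edgeR adjusted p = 0.18).

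Of 9 B cell markers matched, 3 were tested and 1, Ighm, the immunoglobulin mu heavy chain, was called lower. Ighm stood at 111, 75.9 and 79.9 CPM in the foamy and at 555, 678 and 641 CPM in the non-foamy libraries. The summed level of the list ran from 94.8 to 124 CPM in the foamy and from 580 to 697 CPM in the non-foamy libraries. Without Ighm it ran from 12.7 to 18.9 CPM in the foamy and from 14.5 to 24.5 CPM in the non-foamy libraries, which overlap. Cd79b, a signalling chain of the B cell receptor, averaged 16.3 ± 3.56 against 14.0 ± 1.92 CPM (log2 ratio 0.22, edgeR adjusted p = 0.82). The defining genes Cd79a and Pax5 were at or near 0, at no more than 0.271 CPM in any library, and Ms4a1 was highest in non-foamy 1, at 7.58 CPM. Of monocyte markers, 6 of 8 tested were called lower, and their summed level was 63.8 to 72.6 CPM in the foamy and 674 to 991 CPM in the non-foamy libraries. Of these 6, Nr4a1 is also counted among the immediate early genes below. The call of Ly6c2 was lost without foamy 1, foamy 2 or any single non-foamy library. Ccr2, a chemokine receptor of monocytes, averaged 4.37 ± 2.58 against 257 ± 58.2 CPM, and Cx3cr1 averaged 26.6 ± 1.70 against 155 ± 10.98 CPM. The part of such cells in the levels of H2-Oa, H2-Ob and the other class II genes was not tested.

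Ciita (ENSMUSG00000022504, chromosome 16, 10488178 to 10527564, plus strand), whose product switches class II genes on, was scarce in every library. It had 15, 39 and 66 counts in foamy and 54, 79 and 185 counts in non-foamy libraries, or 0.712, 2.17 and 3.56 CPM against 2.92, 4.35 and 7.28 CPM. Within each group it stood highest in replicate 3, and the groups overlapped. The log2 ratio was -1.18 (SE 0.76, edgeR adjusted p = 0.47), from -1.75 without foamy 3 to -0.75 without non-foamy 3 or foamy 1. Transcripts of the overlapping antisense gene Dexi hold 1.46% of its 50-base words, and Dexi itself had 2 to 54 counts per library.

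**Figure D2:**
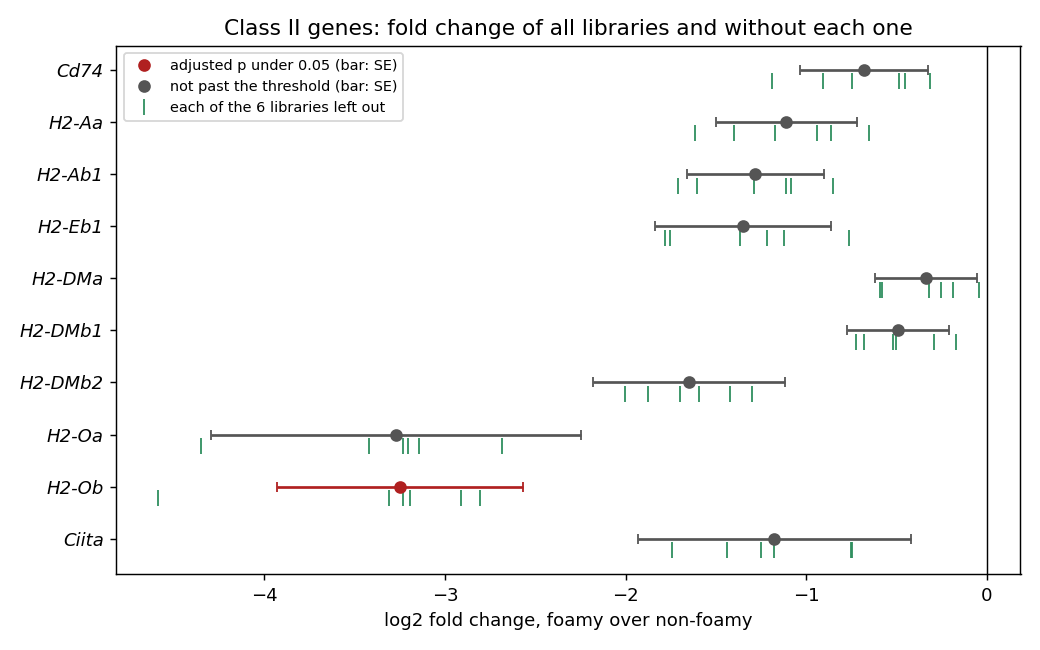
Log2 fold change (foamy over non-foamy) of each class II gene, with its SE as a bar; ticks give the value with each of the 6 libraries left out. Every point and tick lies below 0, the 1 gene past the adjusted threshold is H2-Ob at -3.25, and H2-DMa comes closest to 0, at -0.04 without non-foamy 3.

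Taken as shares of the library, the 10 genes held 1.52%, 1.82% and 3.69% of all counts in foamy 1 to 3 and 3.30%, 4.33% and 6.66% in non-foamy 1 to 3. By this share foamy 3 lay between non-foamy 1 and 2. With TMM factors, the summed level of the 10 genes was 25801 ± 13208 CPM in the foamy and 44229 ± 18600.5 CPM in the non-foamy libraries, a ratio of 1.71. On that scale foamy 3, at 41031 CPM, lay above non-foamy 1 and 2, at 27960 and 40220 CPM. Without Cd74 the sums were 5258 ± 2469 and 11344 ± 5698 CPM, a ratio of 2.16. Cd74 made up 78.8%, 79.0% and 80.2% of the counts of the 10 genes in foamy libraries and 78.5%, 73.5% and 73.1% in non-foamy libraries. No test was made on these sums.

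Levels of different genes were compared per length, as the deposited RPKM. In foamy libraries the order of mean RPKM was Cd74 at 13224, H2-Aa at 1539, H2-Ab1 at 497, H2-Eb1 at 445, H2-DMa at 210.4, H2-DMb1 at 132, H2-DMb2 at 2.16, H2-Ob at 0.609, H2-Oa at 0.595 and Ciita at 0.375. In non-foamy libraries it was Cd74 at 25160.3, H2-Aa at 3923, H2-Ab1 at 1429, H2-Eb1 at 1334, H2-DMa at 315, H2-DMb1 at 221, H2-DMb2 at 8.45, H2-Oa at 7.22, H2-Ob at 7.09 and Ciita at 0.993. The first 6 places were thus the same genes in the same order in both groups. The ranges of H2-Ab1 and H2-Eb1 overlapped in both groups, as did those of H2-DMa and H2-DMb1 and those of neighbours among H2-DMb2, H2-Oa and H2-Ob, so their order is not fixed beyond the spread. Ciita lay below H2-Oa and H2-Ob in every non-foamy library, whereas in foamy libraries its range overlapped those of both. Deposited RPKM is scaled to total counts, on which the median log2 ratio of all tested genes is -0.31 rather than -0.04.

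Balance between chains was read as ratios of RPKM within each library, for 6 ratios with exact two-sided permutation tests, whose smallest possible p with 3 against 3 libraries is 0.10. H2-Ob per 100 H2-DMb1 was 0.221, 0.186 and 0.824 in foamy and 4.97, 3.52 and 2.04 in non-foamy libraries. The groups did not overlap (log2 difference -3.35, exact p = 0.1, adjusted p = 0.2). H2-DMa per 100 H2-Aa was higher in foamy libraries, at 16.9, 15.9 and 11.2 against 8.91, 8.94 and 7.09, and the groups did not overlap (exact p = 0.1, adjusted p = 0.2). Cd74 per 100 H2-Aa was also higher in all foamy libraries, at 905, 816 and 864 against 763, 630.0 and 598 (exact p = 0.1, adjusted p = 0.2). The classical chains had closer ratios. For the paired chains of I-A, H2-Aa per 100 H2-Ab1 was 304 ± 38.6 in foamy and 278 ± 25.6 in non-foamy libraries (exact p = 0.4, adjusted p = 0.48). For the beta chains of I-E and I-A, which do not pair with each other, H2-Eb1 per 100 H2-Ab1 was 89.5 ± 6.58 and 88.1 ± 18.1 (exact p = 0.9, adjusted p = 0.9). H2-DMb2 per 100 H2-DMb1 was 1.62 ± 0.644 and 4.39 ± 2.82, with groups that overlapped (exact p = 0.2, adjusted p = 0.3).

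**Figure D3:**
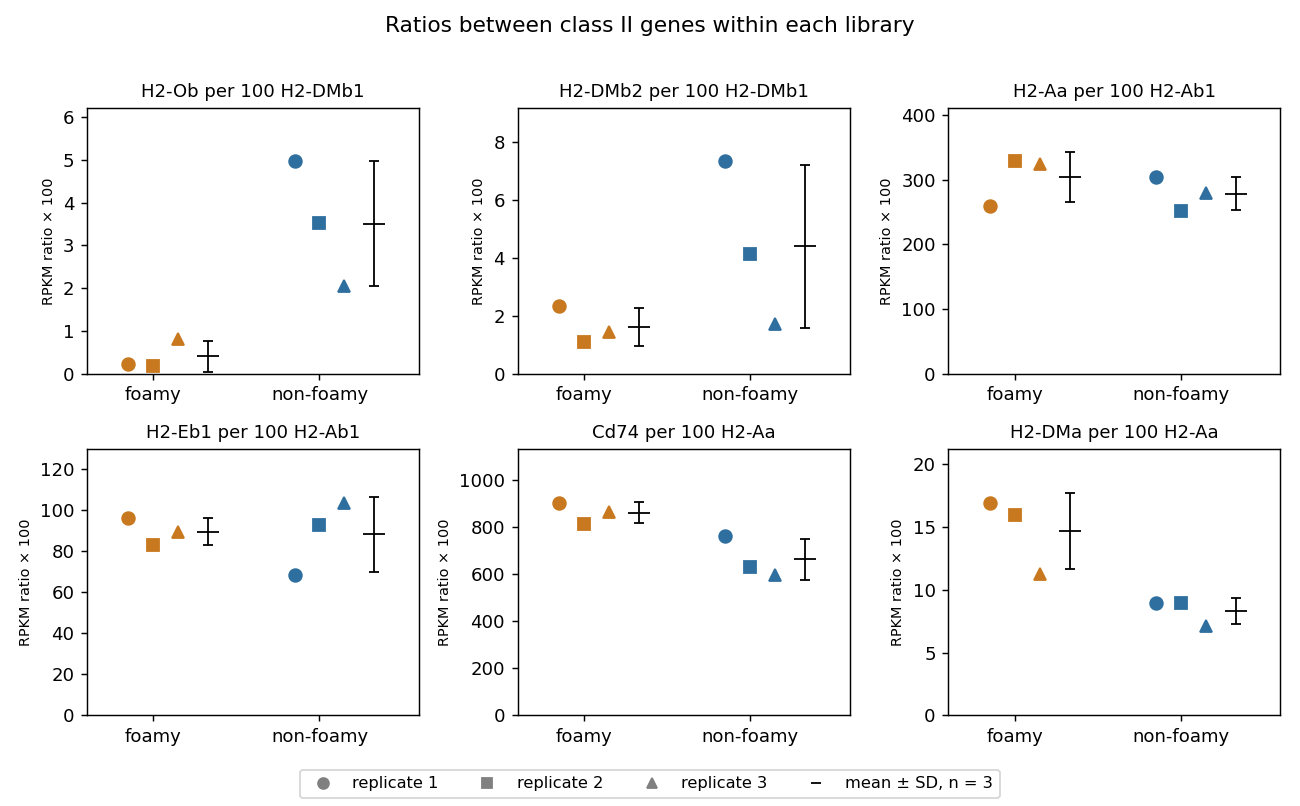
The 6 ratios between class II genes within each library (RPKM times 100, linear axes from 0), with points for replicates and bars for mean ± SD (n = 3). H2-Ob per 100 H2-DMb1 is at most 0.824 in foamy and at least 2.04 in non-foamy libraries, whereas H2-Aa and H2-Eb1 per 100 H2-Ab1 overlap between groups.

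In 8 of the 10 genes, all but H2-DMb2 and H2-Ob, the highest library of a group exceeded the lowest by more than the fitted fold between the groups. For H2-Oa this takes foamy 2, with 0 counts, at its limit of 0.167 CPM, which puts foamy 3 at least 10.97-fold above it, against a fitted fold of 9.66. Foamy 3 was the highest foamy library for 9 of 10 genes, all but H2-DMb2, and non-foamy 3 the highest non-foamy library for 7 of 10. Non-foamy 1 was the lowest of its group for those 7, whereas H2-DMb2 and H2-Oa were highest there and H2-Ob was highest in non-foamy 2. Any single library was the highest of its group for 29.6% to 36.2% of all genes tested. Both libraries numbered 3 were the highest of their groups for 7 of 10 class II genes and for 9.72% of all genes tested. H2-Eb1 spanned 2.29-fold among foamy and 4.54-fold among non-foamy libraries, and H2-Ob spanned 7.74-fold among foamy but 1.19-fold among non-foamy libraries. Over all genes tested, the replicate numbers did not pair the groups in the check given with the alternatives.

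Genes whose pattern was most like that of H2-Ab1 were ranked by Pearson r of log2 CPM over the 6 libraries, among 6089 genes with a mean of at least 10 CPM. The first 5 outside the class II genes were Syt11 (r = 0.99), Ly6e (r = 0.987), Elf1 (r = 0.981), Rnf138 (r = 0.97) and Rtp4 (r = 0.970). Ly6e, a surface protein gene known as interferon-inducible, stood at 329, 360.3 and 659 CPM in the foamy and at 443, 1050.1 and 1470.2 CPM in the non-foamy libraries. Rtp4, also interferon-inducible, stood at 72.2, 57.4 and 88.0 CPM in the foamy and at 75.3, 139.4 and 191 CPM in the non-foamy libraries. In all 5 genes, as in H2-Ab1, replicate 3 was the highest of each group, an order that goes with their choice by r with H2-Ab1. Of the class II genes, H2-Aa ranked 3 (r = 0.985), H2-Eb1 4 (r = 0.983), Cd74 21 (r = 0.950), H2-DMb1 52 (r = 0.916), H2-DMa 89 (r = 0.888) and H2-Ob 215 (r = 0.819). The 6 points share their libraries and depth, and r is a description with no test.

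Genes upstream and around class II were read from 10 lists of the pathway. Among 12 genes of the RFX, NF-Y and CREB complex and its coactivators, 0 were called by edgeR or DESeq2, and at an unadjusted p under 0.05 there were 2 lower and 0 higher; the median log2 ratio was -0.42. The acetyltransferase gene Kat2b averaged 13.3 ± 6.17 against 24.4 ± 3.51 CPM (log2 ratio -0.88, edgeR adjusted p = 0.24). Creb1 averaged 21.8 ± 3.47 against 33.1 ± 4.33 CPM (-0.60, edgeR adjusted p = 0.26). In both, every foamy library lay below every non-foamy library, without passing the test.

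Of 13 tested genes between the interferon gamma receptor and Ciita or induced by that cytokine, 1 was called lower and 0 higher, with a median log2 ratio of -0.13. At an unadjusted p under 0.05, 3 were lower and 0 higher. The called gene was Socs3, a feedback inhibitor of cytokine receptors, at 29.2 ± 3.78 against 98.0 ± 18.3 CPM (log2 ratio -1.75, SE 0.24, edgeR adjusted p = 0.0016). Without foamy 3 the count was 2, with Irf1, a transcription factor that acts on Ciita, also past the threshold (-1.47, edgeR adjusted p = 0.026; -0.92, edgeR adjusted p = 0.17 with all libraries). Irf1 stood at 22.6, 20.2 and 51.7 CPM in the foamy and at 57.7, 58.0 and 62.8 CPM in the non-foamy libraries.

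Of 8 other tested transcription factors known at Ciita, 0 were called, 3 were lower and 0 higher at an unadjusted p under 0.05, and DESeq2 called 1 lower; the median log2 ratio was -0.45. Spi1, which encodes PU.1, stood at 9.97, 13.5 and 8.58 CPM in the foamy and at 14.9, 23.4 and 37.0 CPM in the non-foamy libraries (log2 ratio -1.23, SE 0.39, edgeR adjusted p = 0.10). Maf averaged 81.5 ± 17.6 against 144.5 ± 47.2 CPM (-0.83, SE 0.28, edgeR adjusted p = 0.12). Both passed the threshold without non-foamy 1 (Spi1 -1.50, edgeR adjusted p = 0.046; Maf -1.08, edgeR adjusted p = 0.023). With total counts only, 3 of the 8 were called lower.

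Of 11 tested genes that process the invariant chain and antigen, 5 cathepsin genes were called higher in the foamy libraries and 0 genes lower, with a median log2 ratio of 0.80. Ctss, the cathepsin known for the last steps of invariant chain cleavage, stood at 29509, 31210.4 and 34375 CPM in the foamy and at 8450.4, 10369.5 and 12885 CPM in the non-foamy libraries (log2 ratio 1.59, SE 0.20, edgeR adjusted p = 0.00088). Ctsl, which does this in thymic epithelium, stood at 5128, 6356 and 5786 CPM against 596, 646 and 591 CPM (3.24, SE 0.18, edgeR adjusted p = 9e-06). In neither gene did the groups overlap or come near each other.

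Ctsb was 3.08-fold, Ctsd 4.40-fold and Ctsz 2.48-fold higher in foamy libraries by the fit (edgeR adjusted p = 0.00072, 0.00013 and 0.001). These cathepsins are general enzymes of the lysosome as well as of antigen processing. Lgmn, an asparaginyl endopeptidase, averaged 3543 ± 1033 against 2037 ± 47.1 CPM and did not pass (log2 ratio 0.80, SE 0.21, edgeR adjusted p = 0.053). Its groups did not overlap, and its call depended on the setting. Lgmn passed with DESeq2, limma-voom, upper-quartile factors, no filter or a stricter filter on low counts, and without foamy 2. It also passed with protein-coding genes only and with mitochondrial and ribosomal protein genes left out. The protease gene Sppl2a and the cathepsin inhibitor gene Cst3 had negative log2 ratios, -0.17 (edgeR adjusted p = 0.77) and -0.46 (edgeR adjusted p = 0.49). All 5 calls were reached in each of the 18 alternatives.

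Surface turnover of class II is set by the ubiquitin ligase March1 and by Cd83, which opposes it. Of 6 tested genes of this list 1, Cd83, was called lower, and 0 were higher; the median log2 ratio was -0.48. Cd83 stood at 1110, 581 and 711 CPM in the foamy and at 5498, 4265 and 4047 CPM in the non-foamy libraries, a log2 ratio of -2.52 (SE 0.26, edgeR adjusted p = 0.00022). The groups were far apart. March1 averaged 53.8 ± 11.3 against 57.8 ± 11.7 CPM (log2 ratio -0.11, SE 0.25, edgeR adjusted p = 0.89). Without foamy 2, and without a filter on low counts, 2 of the list were lower.

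The costimulation list, of genes that act beside class II at contacts with T cells, had the lowest median of the pathway lists. It was -2.17 over 7 tested genes, of which 3 were called lower and 0 higher. Not all 7 are costimulatory ligands. Cd40 is a receptor gene, and Cd274 and Pdcd1lg2 encode inhibitory ligands (log2 ratios -0.29 and 0.23, edgeR adjusted p = 0.78 and 0.97). Cd86 stood at 125, 77.6 and 101 CPM in the foamy and at 486, 555 and 537 CPM in the non-foamy libraries (log2 ratio -2.38, SE 0.21, edgeR adjusted p = 0.0001). Tnfsf9, the ligand 4-1BBL, averaged 58.4 ± 15.3 against 1035 ± 103 CPM (-4.15, SE 0.23, edgeR adjusted p = 9e-06). Icosl averaged 10.2 ± 4.34 against 51.0 ± 2.47 CPM (-2.32, SE 0.35, edgeR adjusted p = 0.0032). Cd40 did not pass, at 38.1 ± 9.10 against 45.1 ± 12.97 CPM (-0.24, edgeR adjusted p = 0.74). DESeq2 called 4 of these 7 lower, and also Tnfsf4, which was too scarce for the edgeR test.

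**Figure D4:**
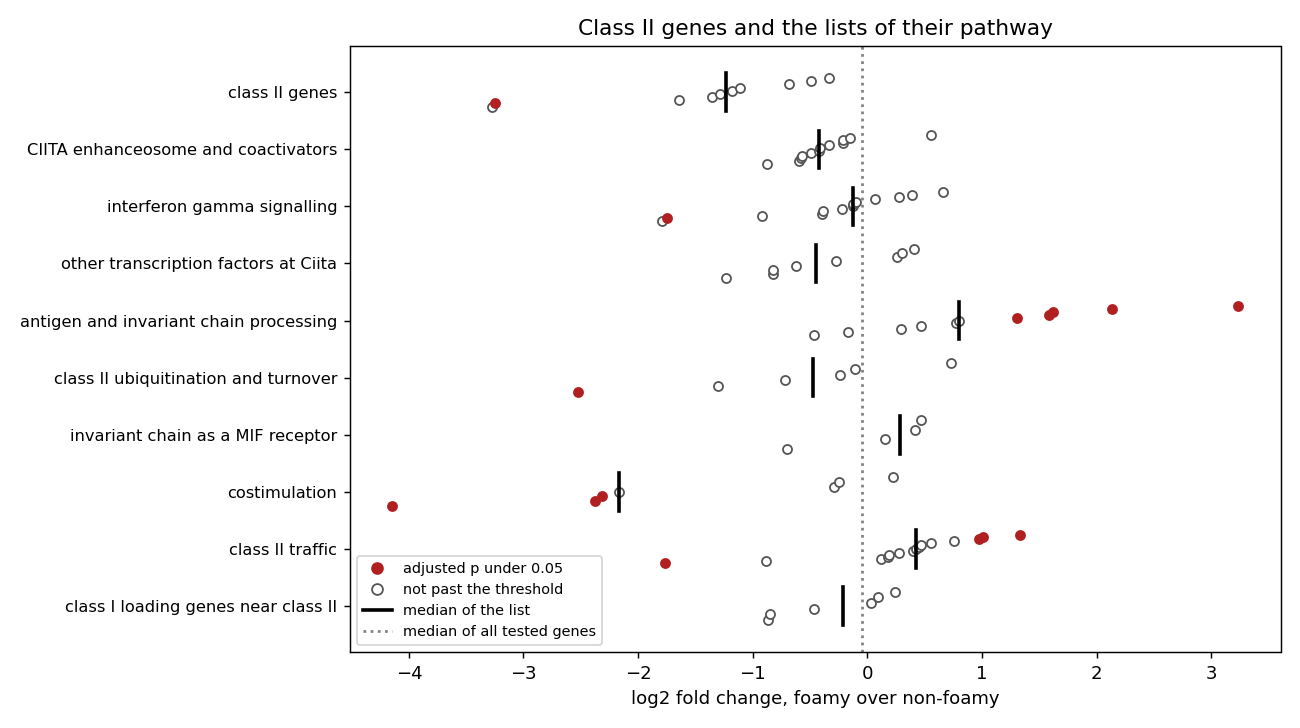
Log2 fold change (foamy over non-foamy) of each tested gene of the class II genes and of the 9 pathway lists with tested genes; filled points passed an adjusted p under 0.05, bars are list medians and the dotted line is the median of all tested genes, -0.04. Medians run from -2.17 for costimulation to 0.80 for antigen and invariant chain processing, with the class II genes at -1.23.

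Of 15 tested genes of endosomal and tetraspanin traffic of class II, 3 were called higher and 1 lower, with a median log2 ratio of 0.42. Cd63, a tetraspanin of the loading compartment, averaged 3544 ± 265 against 1407 ± 139 CPM (log2 ratio 1.33, SE 0.17, edgeR adjusted p = 0.00091). Arl8b, a small GTPase that moves lysosomes, averaged 211 ± 25.6 against 107 ± 16.8 CPM (0.98, SE 0.19, edgeR adjusted p = 0.014), and Lamp1 averaged 689 ± 197 against 342 ± 21.5 CPM (1.01, SE 0.22, edgeR adjusted p = 0.020). Cd81, a tetraspanin of the cell surface, averaged 533 ± 254 against 1809 ± 392 CPM (-1.76, SE 0.30, edgeR adjusted p = 0.0068). Without foamy 2 or foamy 3, and with total counts only, 1 of the 3 higher genes was left.

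Of 4 tested genes of the invariant chain as a MIF receptor, 0 were called by edgeR, with 1 higher and 1 lower at an unadjusted p under 0.05, and DESeq2 called 1 lower. Cxcr4, a partner of the receptor, stood at 78.4, 83.6 and 80.4 CPM in the foamy and at 132, 118 and 143.5 CPM in the non-foamy libraries (log2 ratio -0.70, SE 0.19, edgeR adjusted p = 0.053). Cd44, which carries its signal, averaged 707 ± 39.1 against 529 ± 59.1 CPM (0.42, SE 0.17, edgeR adjusted p = 0.19). In both genes the groups did not overlap, in opposite directions.

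Of 6 tested class I loading genes and neighbours inside the same stretch of chromosome 17, 0 were called by edgeR or DESeq2 and 0 passed an unadjusted p under 0.05; the median log2 ratio was -0.22. Btnl2, too scarce for the edgeR test, had 0 counts in foamy and 56 in non-foamy libraries and was called lower by DESeq2. It stood at 0.162, 2.86 and 0.039 CPM in non-foamy 1 to 3, so most of its counts came from non-foamy 2. The peptide transporter gene Tap1 averaged 7.12 ± 5.42 against 13.01 ± 7.12 CPM (log2 ratio -0.87, SE 0.63, edgeR adjusted p = 0.52). Brd2, whose transcripts cover 8.43% of the 50-base words of H2-DMa from the opposite strand, averaged 37.8 ± 6.22 against 52.2 ± 8.04 CPM (-0.46, SE 0.24, edgeR adjusted p = 0.35).

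Immediate early and heat shock genes, which rise when cells are handled or digested, were also lower in foamy libraries: 13 of 19 tested were called and 0 were higher, with a median log2 ratio of -1.52. Their summed level was 2323 to 2763.5 CPM in the foamy and 5061 to 7526 CPM in the non-foamy libraries. Without foamy 3 the count was 6, without foamy 1 or 2 it was 8, and without both libraries numbered 3 it was 4. T cell, endothelial and smooth muscle markers were near their floor, with summed levels of at most 26.7 CPM in any library. Of the T cell markers only Cd4 was tested by edgeR. It averaged 17.0 ± 5.09 against 1.49 ± 1.71 CPM (log2 ratio 3.52, edgeR adjusted p = 0.022), a call lost without foamy 2, foamy 3 or non-foamy 1. Scarcer genes of that list went both ways. Cd247 had 0 counts in foamy and 93 in non-foamy libraries, Cd3d 3 and 28, and Trac 1 and 23. In non-foamy 3 these genes stood at 3.50, 1.10 and 0.905 CPM, against at most 0.162 CPM in any other library. Cd3g had 14 and 0, and Lck 52 and 8. Cd3g was highest in foamy 1, at 0.570 CPM, and Lck stood at 2.80 CPM in foamy 3 and at 0 in foamy 1 and 2. Each of these gaps thus came mostly from 1 library. DESeq2 tested 4 of the list and called 1 higher and 1, Cd247, lower (log2 ratio -7.01, DESeq2 adjusted p = 0.015). No gene of the endothelial and smooth muscle lists passed an adjusted or unadjusted threshold in edgeR, or DESeq2's. The part of these signals in the class II values was not tested.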

How the data were processed

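Bulk RNA-seq libraries of sorted foamy and non-foamy aortic macrophages, 3 of each, were compared. Per the labels' protocols, tissue was digested for 70 min, SMARTer Ultra Low cDNA got 12 cycles of PCR after ligation, and single reads had 50 bases. No molecular identifiers are named, so counting limits cover counting error only. STAR 2.0.4b, Subread, featureCounts 1.4.5 and GRCm38 are named per the submitters' processing notes; the sources used here give neither strandedness nor the handling of multi-mapped reads.

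The deposited counts are raw, whole reads in each gene. In the deposited CPM, the authors scaled them to 1000000 counts in genes, and in the deposited RPKM also to a kilobase of listed length; both relations were checked to 1e-06. Counts entered the tests, RPKM the comparisons between genes, and the deposited CPM only the check. Symbols were found for 40254 of 41388 IDs.

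Counts were fitted over both groups with edgeR 4.0.16 in R 4.3.3 (filterByExpr, TMM, robust quasi-likelihood F-test), adjusted by Benjamini-Hochberg over all 11303 genes tested, with a threshold of 0.05. SEs are the absolute log2 fold change over the square root of F. Ratios were tested with scipy 1.17.1. The procedure was tested on simulated data. Chi-square per degree of freedom within groups ran from 50.7 to 143, so no 2 libraries agreed within sampling noise.

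The members and lists were chosen with earlier results of these data known. Named were all 10 members, Itgam, Fcgr1 and Apoe; in each list up to 4 called genes by smallest p, or up to 2 where none was called; and the 5 genes most like H2-Ab1. Other genes named were chosen after their values were seen. Of 186 list symbols 183 were matched, all but H2-Ea, Gbp5 and Ighd. Alternatives numbered 18, of which 2, protein-coding genes only and without both libraries numbered 3, were added after seeing the data; they include DESeq2 1.42.0 and limma-voom (limma 3.58.1). The labels state no pairing, so no block entered the fit. Over all genes tested, same-numbered libraries did not deviate together, though 7 of 10 class II genes were highest in both libraries numbered 3.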

Additional observations from a re-analysis of the deposited data

How the results depend on the processing

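The 10 class II genes gave 179 values over 18 alternatives; all were negative, 165 kept their side of the threshold, 11 passed it newly and 3, all of H2-Ob, lost it. The number of these genes called lower, 1 of 10, became 2 with total counts only (H2-Ab1 and H2-Ob) and 2 with the stricter filter, at least 10 counts in 3 libraries plus a mean of 5 CPM (H2-Oa and H2-Ob). It became 3 without a filter (H2-Ab1, H2-Oa, H2-Ob), 4 with DESeq2 (H2-Ab1, H2-DMb2, H2-Oa, H2-Ob) and 3 with the replicate number as a block (H2-Aa, H2-Ab1, H2-Ob). It ran from 0 to 3 when each library was left out in turn: 0 without foamy 1, foamy 2 or non-foamy 2, and 3 without non-foamy 1 (H2-Ab1, H2-Eb1, H2-Ob). None was called higher in any. Ciita gave no value under the stricter filter. Same-numbered libraries correlated at -0.071, -0.023 and -0.031 in their deviations over all genes tested, and no library correlated best with its own number. The labels state no pairing, so the block tests none known from the design.

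The summed level without Cd74 was 5258 CPM in the foamy and 11344 CPM in the non-foamy libraries. With total counts only, the median log2 fold change of all genes was -0.31, and 21.2% of calls were higher, against 46.3%. Of all genes tested, 611 were called, against 1419 with DESeq2, 276 against a 1.5-fold change, 391 with the block and 194 without both libraries numbered 3; leaving out 1 library gave 271 to 579. Among 128 other list genes with 2292 values, 98 lost their call, 51 gained it and none of those called reversed. Depth limits H2-Oa, H2-Ob, Ciita and H2-DMb2 most, with as few as 0, 11, 15 and 35 counts in a library.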

Other observations

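Some genes induced by interferon gamma did not pass the test between the groups but, like 7 of 10 class II genes, were highest in replicate 3 of each group; they were chosen for this after their values were seen. Cxcl9, a chemokine gene known as a target of that cytokine, stood at 28.2, 8.64 and 112 CPM in foamy 1 to 3 and at 19.99, 17.5 and 104 CPM in non-foamy 1 to 3 (log2 ratio 0.07, edgeR adjusted p = 0.99). Gbp2, a guanylate-binding protein gene, stood at 35.5, 33.5 and 113 CPM in the foamy and at 35.0, 22.2 and 58.3 CPM in the non-foamy libraries. Both were lowest in foamy 2 and non-foamy 2, whereas non-foamy 1 was the lowest of its group for those 7 class II genes. Of the 13 tested genes of that list, 6 were highest in both libraries numbered 3, as were 7 of 10 class II genes and 9.72% of all genes tested. The median log2 level of the class II genes in replicate 3 over the mean of the other 2 libraries was 1.05 in foamy and 0.83 in non-foamy libraries, against -0.01 and -0.03 over all genes tested. The immunoproteasome genes Psmb8 and Psmb9, which lie within the class II region and make peptides for class I, also stood highest in replicate 3 of each group. Of the 6 tested class I loading genes and neighbours, 3 were highest in both libraries numbered 3, whereas Tap1, Tap2 and Brd2 were not. Psmb8 ran from 74.6 to 99.6 CPM in the foamy and from 53.1 to 113.6 CPM in the non-foamy libraries.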
